A study of Mus musculus with 18 samples.

Results

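The mitochondrial respiratory chain subunits that are encoded in the nucleus were described in livers of Young and Old mice. They were 33 listed genes plus every gene whose symbol starts with Atp5. Together this gave 50 genes of 18946 in the table: 17 of complex I, 6 of complex III with cytochrome c as a further gene counted beside them, 9 of complex IV and 17 of complex V. All 50 were listed in the table, and all 50 passed the filter on low values.

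The livers came from male mice of the inbred strain C57BL/6J, 8 Young (6.18 months by the sample labels) and 10 Old (19.76 months). The study's design text rounds these ages to 6 and 20 months, and its growth protocol gives 21 months for the Old mice. The labels name no transgene and no drug. Each mouse, Young or Old, had fasted for 14 h and then spent 150 min under a hyperinsulinemic-euglycemic clamp, an infusion of insulin with enough glucose to keep blood sugar steady, so every value below is from an insulin-stimulated liver. Isotope-labelled glucose, lactate and palmitate were infused as tracers, through a jugular catheter fitted beforehand, in both ages. Each library was 1 mouse, and rRNA was depleted from total RNA. RNA had been taken out with the AllPrep kit for 3 Young and 5 Old mice and with the RNeasy kit for 5 Young and 5 Old mice.

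The respiratory chain passes electrons from NADH and reduced quinone through complexes I, III and IV to oxygen, and pumps protons across the inner mitochondrial membrane while doing so. Complex V, the ATP synthase, lets the protons flow back and makes ATP. Most subunits are made from nuclear genes and imported, while a small core is encoded by mitochondrial DNA. In hepatocytes the chain powers glucose production, urea synthesis and lipid handling, and its nuclear genes are known targets of the transcription factors NRF1, GABP (an ETS factor), ERR and YY1.

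The start regions of 3 of the subunit genes are printed because each holds the letters of the NRF1 motif. They are the 250 bases before an annotated start from RefSeq, build GRCm38.p6, minus strand, written 5′ to 3′. Capitals mark the NRF1 letters, which are GCGCA, then any base, then GCGC, on either strand. The regions are Ndufa8 of complex I (chr2:36049339-36049588), Cox6a1 of complex IV (chr5:115348959-115349208) and Atp5c1 of complex V (chr2:10080433-10080682). Atp5c1 has a further annotated start, and the window there (chr2:10080511-10080760) holds no such match.
Ndufa8: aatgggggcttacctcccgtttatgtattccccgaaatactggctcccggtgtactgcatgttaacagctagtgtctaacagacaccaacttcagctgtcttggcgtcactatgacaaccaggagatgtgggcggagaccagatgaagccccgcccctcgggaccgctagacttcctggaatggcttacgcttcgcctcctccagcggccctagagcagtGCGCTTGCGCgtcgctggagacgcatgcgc
Cox6a1: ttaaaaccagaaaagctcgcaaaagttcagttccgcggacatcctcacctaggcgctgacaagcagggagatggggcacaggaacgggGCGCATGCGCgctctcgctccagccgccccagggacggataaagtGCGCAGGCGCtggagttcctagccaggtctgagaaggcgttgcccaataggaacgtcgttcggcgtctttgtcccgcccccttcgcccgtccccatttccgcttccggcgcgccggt
Atp5c1: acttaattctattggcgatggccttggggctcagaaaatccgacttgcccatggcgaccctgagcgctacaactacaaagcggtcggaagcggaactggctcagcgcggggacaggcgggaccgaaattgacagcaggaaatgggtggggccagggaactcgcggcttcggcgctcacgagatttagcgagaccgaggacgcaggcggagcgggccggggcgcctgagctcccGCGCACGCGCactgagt

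Of the 50 genes, 40 had a start region in the RefSeq table, read from 250 bases before to 50 after the start, and 4 of them had more than 1 start. The NRF1 letters occurred in 10 of the 40, and in 5.19% of all 27025 genes in that table. The ETS letters CCGGAAG occurred in 11 of the 40 and in 9.93% of all genes. The ERR letters CAAGGTCA were found for Atp5g3 and Atp5l, 2 of the 40, against 1.76% of all genes, and the YY1 letters AANATGGCG for 5 of the 40, against 2.76%. Both strands were read for each motif. Cox6a1, Atp5h and Atp5k held both the NRF1 and the ETS letters, and matches to different motifs were counted separately. A match describes the letters in the window and does not show that a factor binds there. A link between these letters and the levels of the genes was not tested.

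The subunits were abundant transcripts whose levels differed widely within a complex. Levels are given as deposited TPM, a measure per gene length with a fixed total in each library, and as the mean over the 18 libraries. In complex I the lowest was Ndufs1, the large iron-sulfur subunit that takes electrons from the NADH site, at 73.1 TPM, and the highest was Ndufa4 at 687 TPM. Ndufa4 was first purified with complex I and is now regarded as a complex IV subunit. In complex III Uqcrb, a small quinone-site subunit, was highest at 400.0 TPM. Cycs, which encodes cytochrome c, the mobile carrier between complexes III and IV, was the lowest of all 50 at 41.1 TPM.

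In complex IV the levels ran from Cox5a at 73.5 TPM to Cox4i1, the ubiquitous form of subunit 4, at 852 TPM. In complex V they ran from Atp5j, coupling factor 6 of the stalk, at 61.7 TPM to Atp5b, the catalytic beta subunit, at 1239 TPM. The highest gene was thus 9.39 times the lowest in complex I, 9.74 times in complex III with Cycs, 11.6 times in complex IV and 20.1 times in complex V. These orders and spans depend on the gene lengths behind the TPM values. The length recovered for Atp5j was 4137 bases, 5.11 times its longest GENCODE transcript, that for Cox5a 3153 bases, 4.89 times, and that for Atp5g1 998 bases, 0.212 times. Divided by the longest GENCODE transcript instead, Atp5j would be at 315 TPM and Cox5a at 359 TPM, while Atp5g1 would be at 27.7 TPM, below Cycs at 41.5 TPM. Comparisons of 1 gene between livers do not use the length.

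**Figure D1:**
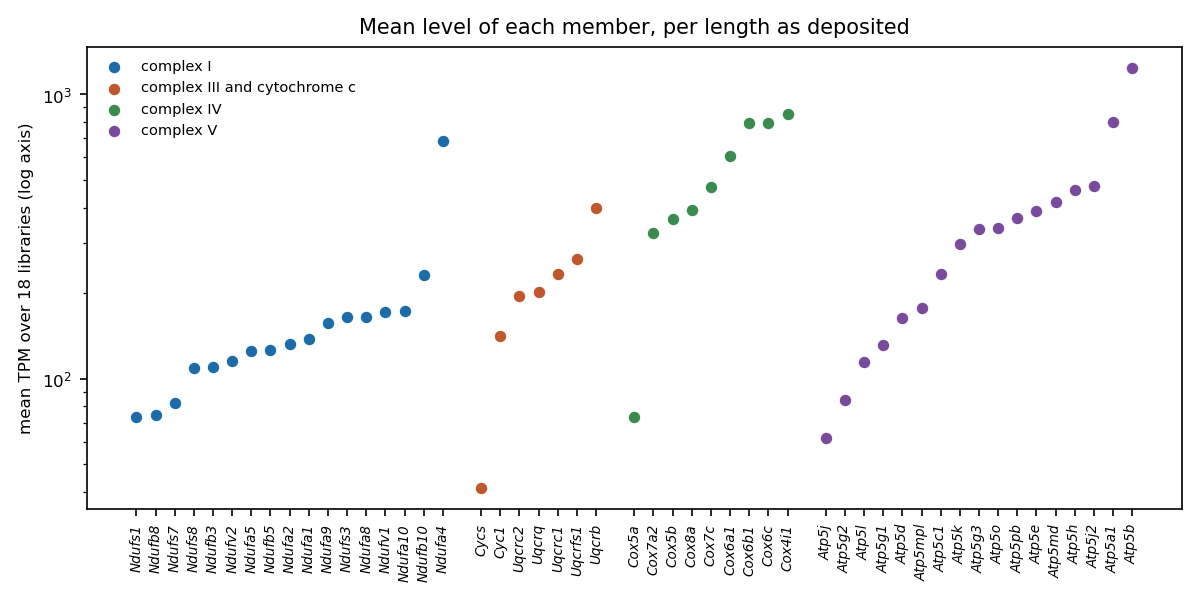
Mean TPM over the 18 libraries (log axis) of each of the 50 genes, ordered within its complex. Each point is 1 gene. The genes run from 41.1 TPM (Cycs) to 1239 TPM (Atp5b), and the genes set apart at the bottom of complexes III and IV are Cycs and Cox5a.

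The forms of these subunits known from muscle, testis or other tissues were near the floor. Cox7a1, the heart and muscle form of subunit 7a, was at 1.71 TPM, and Cox7a2 stood 191 times above it. Cox8b, the muscle form of subunit 8, was at 0.712 TPM, with Cox8a 550 times above it, and Ndufa4l2 was at 1.39 TPM, with Ndufa4 492 times above it. Cox6b2, the testis form of subunit 6b, was at 0.826 TPM, with Cox6b1 957 times above it. These forms were counted from few reads, 4 to 49 per library for Cox6b2.

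The 50 genes were read deeply. Whole reads could be recovered from the TPM values, 85790735 to 127487820 per library over the listed genes, and each of the 50 genes had between 1796 reads (the lowest library of Atp5g2) and 138193 reads (the highest of Atp5b). Hepatocyte markers made up 109769 to 133791 TPM of each Young library and 108125 to 163421 TPM of each Old library, with 9 of 10 markers listed and none at 0. Among 28 pseudogene transcripts at least 95% identical to one of the 48 genes found in GENCODE over at least 200 bases, belonging to 12 of the genes, 0 were listed in the table. Reads of such copies may have been counted to the gene or left out.

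No subunit passed the test for age. The question was whether livers of Old mice carry less or more of the subunit transcripts than those of Young mice. Values were scaled between libraries by a composition factor (scaled TPM below), and limma compared log2(scaled TPM + 0.5) between ages with the extraction kit as a term. Of the 50 genes, 0 were called at an adjusted p under 0.05, where 4.86% of the 13895 genes tested were called in either direction, 2.43% higher and 2.43% lower. At an unadjusted p under 0.05, 6 of the 50 were lower and 0 higher, against 11.6% lower and 11.9% higher over all genes tested. limma-voom on the recovered reads likewise called 0, with 6 at an unadjusted p under 0.05.

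Most estimates lay on one side. The log2 difference, Old minus Young, was below 0 for 47 of 50 genes, with a median of -0.12, a ratio of 0.923. The genes share the same 18 libraries and varied together (median r of pairs 0.66, age and kit means removed). They are thus not 50 separate observations. Averaged over the 50 genes, the log2 deviation from each gene's mean was 0.053 (SD 0.158) in Young livers. In Old livers it was -0.042 (SD 0.147). Over all genes tested 49.0% were below 0 and the median was 0.0044. Among the 8254 genes with a mean of at least 5 TPM, 56.6% were below 0 and the median was -0.025. The 50 genes were also shorter, with a median length of 872 bases against 3296 for genes tested. The median of the 50 was -0.059 without the composition factor, with 39 below 0, -0.031 with weights for each library, with 38 below 0, and -0.054 with body weight as a term, with 35 below 0. Without the factor the median of all genes moved to 0.055, and relative to it the 50 stood at -0.11, against -0.12 with the factor. The 3 genes above 0 were Ndufa2 (0.03), Ndufb10 (0.04) and Atp5k (0.07). The 95% intervals of single genes spanned from -0.46 (Atp5md, a ratio of 0.726) to 0.24 (Atp5k, a ratio of 1.18), so larger changes than these were outside every interval, while smaller shifts could not be resolved gene by gene. For no gene did the Young and Old libraries separate, and over all genes tested 0.202% had every Old library below every Young one and 0.223% every Old library above. In whole liver, fewer hepatocytes and less of a transcript per hepatocyte cannot be told apart.

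Markers of other liver cells were taken beside the age result. The summed macrophage and Kupffer cell markers had a median of 292 TPM in Young (232 to 415) and of 431 TPM in Old livers (250 to 646), and the hepatocyte markers had medians of 118433 and 134505 TPM. The median log2 age difference of single markers was 0.24 for macrophages, 0.18 for stellate cells and fibroblasts and 0.18 for T and NK cells. It was 0.51 for B and plasma cells, 0.57 for neutrophils and 0.0065 for sinusoidal endothelium. Below 0 were cholangiocytes (-0.19), erythroid cells (-0.12) and hepatocytes (-0.054). In limma 1 of 5 B and plasma cell markers rose, and 0 of the markers in the other 8 lists were called. Their part in the age estimates of the subunits was not tested.

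By complex, complex III with cytochrome c had the lowest median, -0.18, with 7 of 7 genes below 0. The median was -0.13 in complex IV (9 of 9 below 0), -0.11 in complex I (15 of 17) and -0.11 in complex V (16 of 17). Of the 6 genes with an unadjusted p under 0.05, 4 were in complex III, 1 in complex I, 1 in complex V and 0 in complex IV. Without Young replicate 1 there was 1 such gene and 0 in complex III, without Old replicate 14 there were 4 and 2, and with weights for each library 0. Over all 13895 genes, 1463, 1671 and 1833 were lower at that p in these settings, against 1610 in the main fit. The complexes' ranges overlapped, and differences between complexes were not tested.

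**Figure D2:**
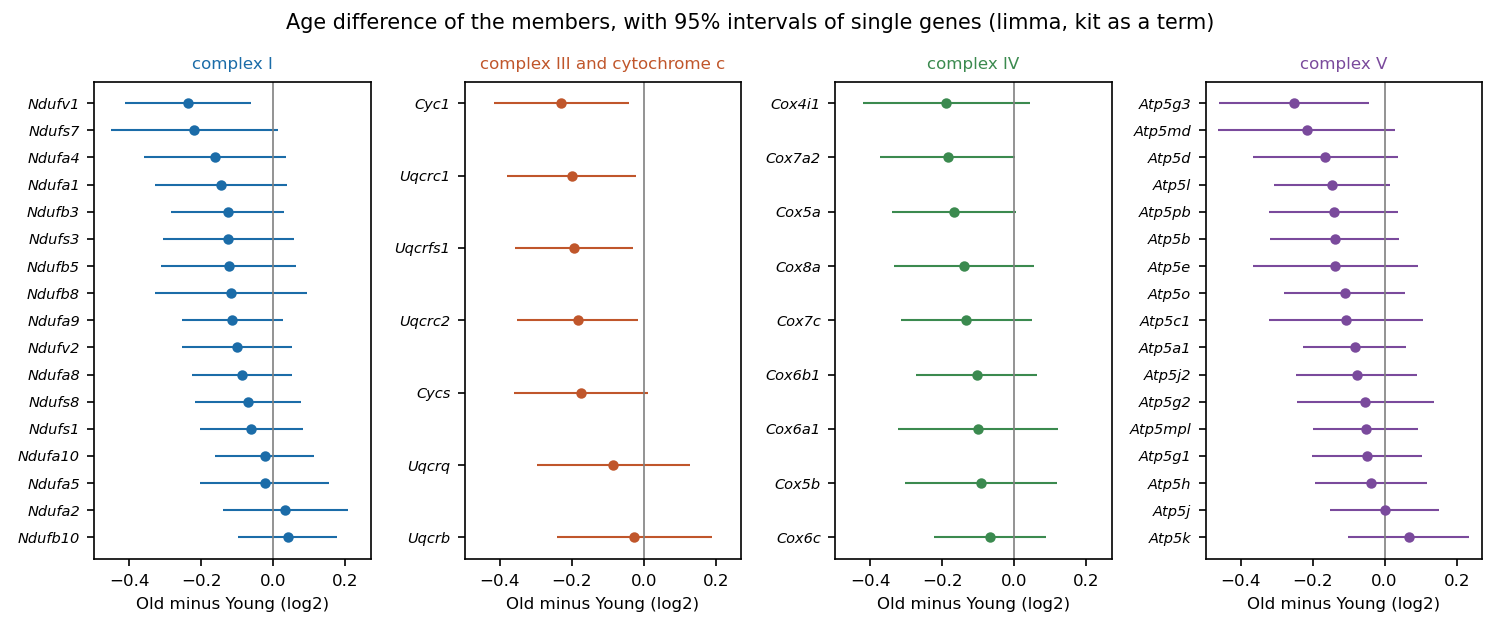
Log2 difference in scaled TPM, Old minus Young, for each gene with its 95% interval from limma (8 Young and 10 Old libraries, extraction kit as a term), in 1 panel per complex. Points are estimates and lines are intervals, and the vertical line is at 0. Most points lie left of 0, and 6 of the 50 intervals lie wholly left of it.

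In complex I the strongest estimate was for Ndufv1, the flavoprotein subunit where NADH is oxidised. Ndufv1 ranged from 165 to 219 scaled TPM in Young livers, with a median of 187, and from 126 to 191 in Old livers, with a median of 163. The ranges overlapped, with 9 of 10 Old livers below the Young median. Its log2 difference was -0.24 (SE 0.083), with an adjusted p of 0.101 from limma, the smallest among the 50. Ndufs7, an iron-sulfur subunit next to the quinone site, ranged from 76.5 to 103 in Young (median 88.5) and from 52.9 to 94.8 in Old livers (median 79.4), a log2 difference of -0.22 (SE 0.110, limma adjusted p 0.242). Ndufs7 varied more among Old livers (SD 14.8) than among Young ones (SD 8.75), and 7 of 10 Old livers were below the Young median.

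Ndufa4, the most abundant of this set, ranged from 581 to 1111 scaled TPM in Young (median 677) and from 480 to 761 in Old livers (median 662). Its medians were close, and the highest Young value came from a single liver, replicate 1. The log2 difference was -0.16 (SE 0.094, limma adjusted p 0.311). Ndufs1 was the steadiest of the complex I genes described here, from 69.2 to 77.9 in Young (median 74.2) and from 59.2 to 82.2 in Old livers (median 72.9), with a log2 difference of -0.061 (SE 0.068, limma adjusted p 0.616). The other 13 complex I genes had log2 differences between -0.15 (Ndufa1) and 0.04 (Ndufb10).

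In complex III no gene passed the threshold, and the 3 with the smallest p were Cyc1, Uqcrfs1 and Uqcrc1. Cyc1, cytochrome c1, ranged from 131 to 188 scaled TPM in Young (median 154) and from 104 to 157 in Old livers (median 132). The log2 difference of Cyc1 was -0.23 (SE 0.089, limma adjusted p 0.133), and 9 of 10 Old livers were below the Young median. Uqcrfs1, the Rieske iron-sulfur protein, ranged from 245 to 353 in Young (median 279) and from 195 to 276 in Old livers (median 253). All 10 Old livers were below the Young median of Uqcrfs1, though not below the lowest Young liver, and the log2 difference was -0.19 (SE 0.078, limma adjusted p 0.142).

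Uqcrc1, a core protein of complex III, ranged from 218 to 302 scaled TPM in Young (median 244) and from 169 to 264 in Old livers (median 230), a log2 difference of -0.20 (SE 0.085, limma adjusted p 0.163). Its partner core gene Uqcrc2 had a log2 difference of -0.18 (limma adjusted p 0.173). Cycs ranged from 37.5 to 52.2 in Young (median 42.8) and from 28.5 to 46.3 in Old livers (median 39.7), with a log2 difference of -0.17 (SE 0.089, limma adjusted p 0.249). Uqcrq, a small accessory subunit, had a log2 difference of -0.084 (limma adjusted p 0.645). Uqcrb was the nearest to 0 in complex III. It ranged from 343 to 504 in Young (median 373) and from 238 to 494 in Old livers (median 403), and its log2 difference was -0.026 (SE 0.103, limma adjusted p 0.905).

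In complex IV all 9 estimates were below 0 and none reached an unadjusted p under 0.05. Cox7a2, the general form of subunit 7a, ranged from 303 to 475 scaled TPM in Young (median 329) and from 245 to 402 in Old livers (median 316), a log2 difference of -0.19 (SE 0.089, limma adjusted p 0.220). Cox5a ranged from 63.4 to 103 in Young (median 77.1) and from 51.1 to 85.3 in Old livers (median 72.2), a log2 difference of -0.17 (SE 0.082, limma adjusted p 0.226). Cox4i1 ranged from 774 to 1298 in Young (median 872) and from 577 to 1034 in Old livers (median 829), a log2 difference of -0.19 (SE 0.110, limma adjusted p 0.315). In each of these 3 genes Young replicate 1 was the highest of the 18 libraries, well clear of the next Young liver. The other 6 complex IV genes had log2 differences between -0.14 (Cox8a) and -0.067 (Cox6c).

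In complex V the lowest estimate of all 50 genes was that of Atp5g3, 1 of 3 genes (with Atp5g1 and Atp5g2) that encode the same mature c subunit of the proton-driven ring. Atp5g3 ranged from 330 to 489 scaled TPM in Young (median 351) and from 207 to 373 in Old livers (median 323). Its log2 difference was -0.25 (SE 0.099, limma adjusted p 0.137), and 8 of 10 Old livers were below the Young median. The other c-subunit genes were nearer to 0, at -0.049 for Atp5g1 (limma adjusted p 0.718) and -0.053 for Atp5g2 (limma adjusted p 0.755). The differences between these 3 genes were not tested.

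Atp5md, a small membrane subunit known as DAPIT, ranged from 387 to 754 scaled TPM in Young (median 417) and from 283 to 482 in Old livers (median 385), a log2 difference of -0.22 (SE 0.117, limma adjusted p 0.278). Atp5l, subunit g of the membrane part, ranged from 109 to 140 in Young (median 120.0) and from 89.4 to 123 in Old livers (median 116), a log2 difference of -0.15 (SE 0.077, limma adjusted p 0.265). Atp5b ranged from 1141 to 1504 in Young (median 1276) and from 858 to 1405 in Old livers (median 1199), a log2 difference of -0.14 (SE 0.085, limma adjusted p 0.335). Atp5j ranged from 53.4 to 82.2 in Young (median 57.9) and from 49.6 to 70.1 in Old livers (median 63.4), with an interval from -0.15 to 0.15 around an estimate of almost exactly 0. For Atp5j, 3 of 10 Old livers were below the Young median. The other 10 complex V genes had log2 differences between -0.16 (Atp5d) and 0.07 (Atp5k).

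**Figure D3:**
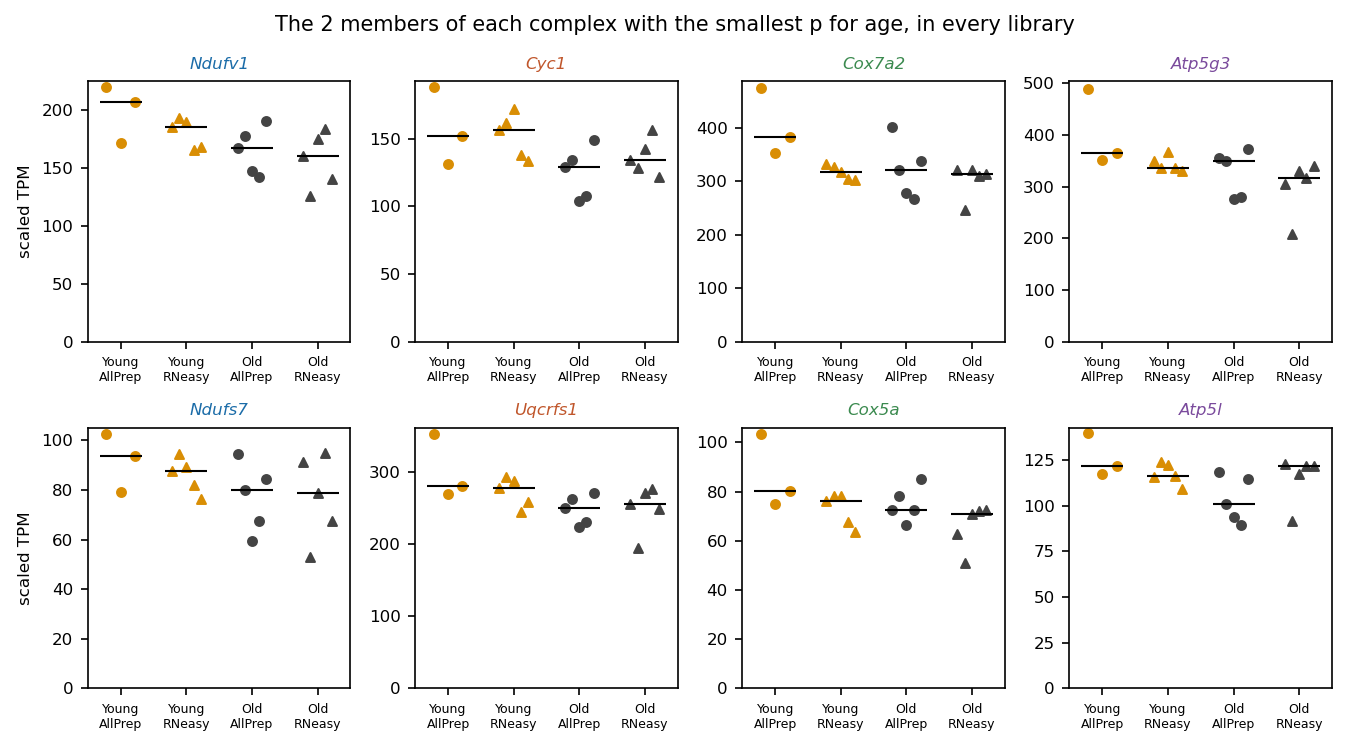
Scaled TPM in every library (vertical axes from 0) of the 2 genes with the smallest p for age in each complex, split by age and extraction kit. Circles are AllPrep and triangles RNeasy libraries, and bars are medians. Ages overlap in each panel, and the highest Young point in each is Young replicate 1, an AllPrep library.

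Most of the spread among the livers was shared by all 4 complexes. The level of each library was summarised as the mean, over the genes of a complex, of the log2 deviation from each gene's mean over the 18 libraries. Young replicate 1 was the highest, 0.39 above the mean for the 50 genes, and was the highest of all 18 libraries for 42 of them. Old replicate 14 was the lowest, at -0.31, and was the lowest of all for 30 genes. In complexes I, III, IV and V Young replicate 1 stood at 0.34, 0.42, 0.45 and 0.40, and Old replicate 14 at -0.29, -0.31, -0.38 and -0.30. Next lowest was Old replicate 8 at -0.20. The other 7 Young livers lay between -0.092 and 0.16, and the other 9 Old livers between -0.20 and 0.13.

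The age estimates were smaller without these outermost livers, which follows from how the livers were picked. They were the highest Young and the lowest Old liver on these same 50 genes. Leaving them out brings the ages closer by construction. Without Young replicate 1 the median age difference of the 50 genes was -0.071, with 43 below 0. Leaving out Old replicate 14 gave -0.089, with 45 below 0. With neither of them it was -0.036, with 38 below 0, and 0 of the 50 were called in each case. Over all 13895 genes, 180 were called higher and 195 lower without Young replicate 1. The counts were 513 and 466 without Old replicate 14, and 355 and 319 with neither. Old replicate 14 had the highest sums of the 18 libraries for hepatocyte (163421 TPM), sinusoidal endothelium (191 TPM), cholangiocyte (95.3 TPM) and B and plasma cell markers (33.4 TPM). Young replicate 1 had 118429 TPM of hepatocyte markers, inside the range of the other livers. The part of these marker levels in the result was not tested.

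**Figure D4:**
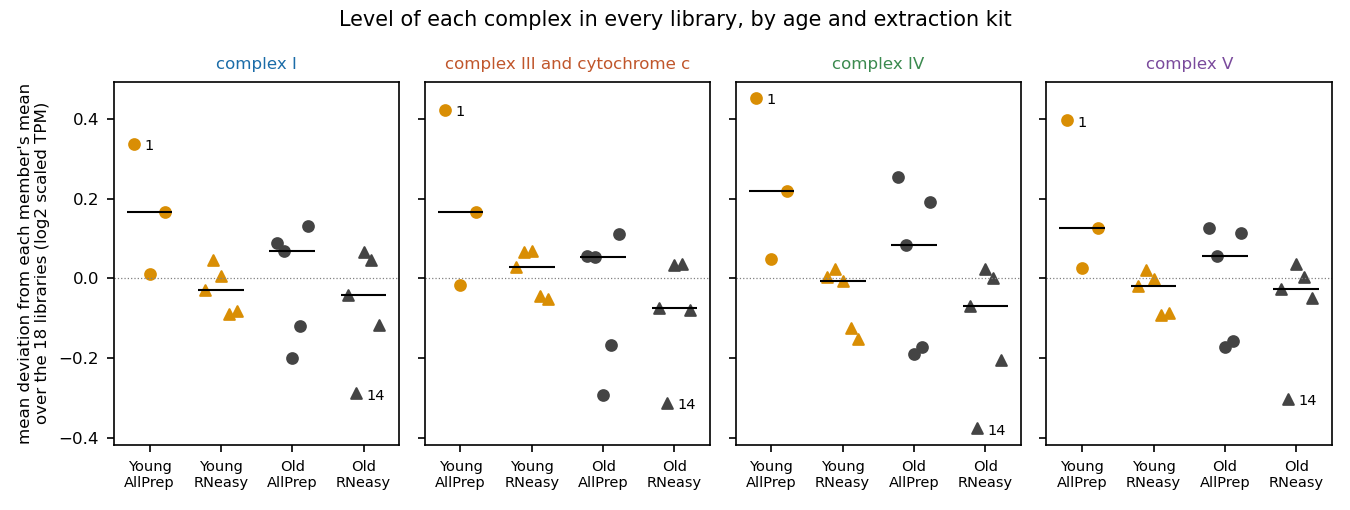
Mean log2 deviation of each complex in every library, in 1 panel per complex, split by age and extraction kit (circles AllPrep, triangles RNeasy, bars medians). Young replicate 1 is labelled 1 and Old replicate 14 is labelled 14. The same libraries are high or low in all 4 panels, from 0.45 down to -0.38 in complex IV.

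Within the libraries, the correlation of subunits was taken after removing age and kit means, over the 18 libraries, and is a description since all genes share the same libraries and scaling. The median r over the 1225 pairs of genes was 0.66. It was 0.65 within complex I, 0.66 within complex III, 0.79 within complex IV and 0.59 within complex V, and 0.67 between genes of different complexes. Genes of 1 complex thus tracked each other about as closely as genes of different ones, apart from the higher value in complex IV. Each gene's r with the mean of the other 49 had a median of 0.83. Without Young replicate 1 and Old replicate 14, the pair median was 0.62 and the median with the mean of the other 49 was 0.79. The other 13845 genes tested had a median r of -0.00088 with the mean of the 50. Positive and negative r offset each other in that median, so it is no like measure to set beside 0.83. Sets of other genes of like level or length were not compared.

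Cox6b1, Atp5h and Cox4i1 followed the group most closely, at 0.96, 0.95 and 0.94. Ndufs1, Atp5g2 and Ndufa2 did so least, at 0.34, 0.37 and 0.39. The extremes of this order were named after their values were seen. The spread of single genes was not large: the coefficient of variation had a median of 12.9% in Young and 13.0% in Old livers, against 14.6% and 18.1% over all genes tested. Among the 2344 genes of at least 40 TPM, closer to the subunits in level, it was 12.9% and 15.9%.

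Subunit levels differed between livers extracted with AllPrep and with RNeasy. Other differences between these livers cannot be told apart from the kit. The fitted log2 difference, RNeasy minus AllPrep, was below 0 for 46 of 50 genes, with a median of -0.14, against -0.010 for all genes. In limma with age as a term, 8 of the 50 fell and 0 rose in RNeasy at an adjusted p under 0.05, where 5.56% of all genes were called lower and 12.7% higher. The 8 were Ndufa4, Ndufa10 and Ndufs8 of complex I, Uqcrb of complex III, Cox6a1, Cox6c and Cox8a of complex IV, and Atp5g1 of complex V. By complex the median was -0.13 in complex I, -0.11 in complex III, -0.20 in complex IV and -0.16 in complex V. More abundant genes leaned the same way. Among the 8254 genes with a mean of at least 5 TPM, 64.5% were below 0 for the kit, with a median of -0.057. Of these 8254 genes, 533 were called lower and 386 higher.

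Cox6c, a small membrane subunit, ranged from 760 to 1115 scaled TPM in AllPrep (median 864) and from 659 to 785 in RNeasy livers (median 740), a log2 difference of -0.29 (SE 0.074, limma adjusted p 0.011). All 10 RNeasy livers were below the AllPrep median of Cox6c, but the ranges overlapped. Cox6a1, the general form of subunit 6a, had the lowest kit estimate, from 503 to 831 in AllPrep (median 708) and from 423 to 621 in RNeasy livers (median 551). Its log2 difference was -0.35 (SE 0.105, limma adjusted p 0.029). Ndufa10, an accessory subunit of complex I, ranged from 155 to 212 in AllPrep (median 185) and from 148 to 180 in RNeasy livers (median 161), a log2 difference of -0.22 (SE 0.065, limma adjusted p 0.026). The other 5 genes called had log2 differences from -0.31 (Uqcrb) to -0.23 (Ndufs8).

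The calls for the kit changed with the processing. Without the composition factor the median of all genes moved from -0.010 to 0.11, the median of the 50 genes from -0.14 to -0.0081, with 27 of 50 below 0, and 0 of the 50 were called. Relative to all genes the subunits stood at -0.13 with the factor and -0.12 without it. Of the 8 calls, 2 were left without Young replicate 1, 2 without Old replicate 18, 3 without Old replicate 5, 3 without Young replicate 11, 4 without Old replicate 7 and 1 without Young replicate 13. There were 5 when any of Young replicates 2, 3, 4 and 12 or Old replicates 6 and 17 was left out. Over all 13895 genes, 772 were called lower with every library in. That count was 1066 without Young replicate 1 and 520 without Young replicate 13. With Young replicate 1 and Old replicate 14 both left out, it was 1690, and 3 of the 50 were called lower. Among the Young livers alone, 2 were called lower (1.07% of all genes), with 50 of 50 genes below 0, and among the Old alone 0 were called, with 39 of 50 below 0.

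Markers of other liver cells moved with the kit too. In RNeasy livers 4 of 8 macrophage and Kupffer cell markers, 3 of 8 stellate cell and fibroblast markers, 2 of 9 hepatocyte markers and 1 of 4 erythroid markers fell, and 0 in any of the 9 marker lists rose. The summed macrophage markers ran from 255 to 646 TPM in AllPrep and from 232 to 579 TPM in RNeasy livers, and the hepatocyte markers from 118429 to 145478 and from 108125 to 163421 TPM. Their part in the kit difference was not tested.

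Split by kit, the age estimates were larger in AllPrep livers. In the 8 AllPrep livers all 50 genes were below 0, with a median log2 difference of -0.20. In the 10 RNeasy livers 37 were below 0, with a median of -0.052. With Young replicate 1 left out, the AllPrep median was -0.091, with 44 below 0, and without Old replicate 14 the RNeasy median was -0.0051, with 27 below 0. Both livers were picked as the outermost of their age, so these smaller estimates follow from the choice. None of the 50 was called in either kit. Of the 13895 genes tested, 98 were called higher and 55 lower in AllPrep livers, and 7 and 7 in RNeasy livers. The difference between the kits was itself tested as an interaction in limma: 0 of 50 genes and 0% of all genes were called, with a smallest adjusted p of 0.975 among the 50. At an unadjusted p under 0.05 there were 0 of the 50, against 1.92% of all genes above 0 and 2.31% below. The interaction estimate, AllPrep minus RNeasy, was below 0 for 46 of 50 genes, with a median of -0.15. For Cox7a2 the age difference was -0.33 in AllPrep and -0.074 in RNeasy livers, and for Ndufv1, the steadier case, it was -0.27 and -0.21.

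**Figure D5:**
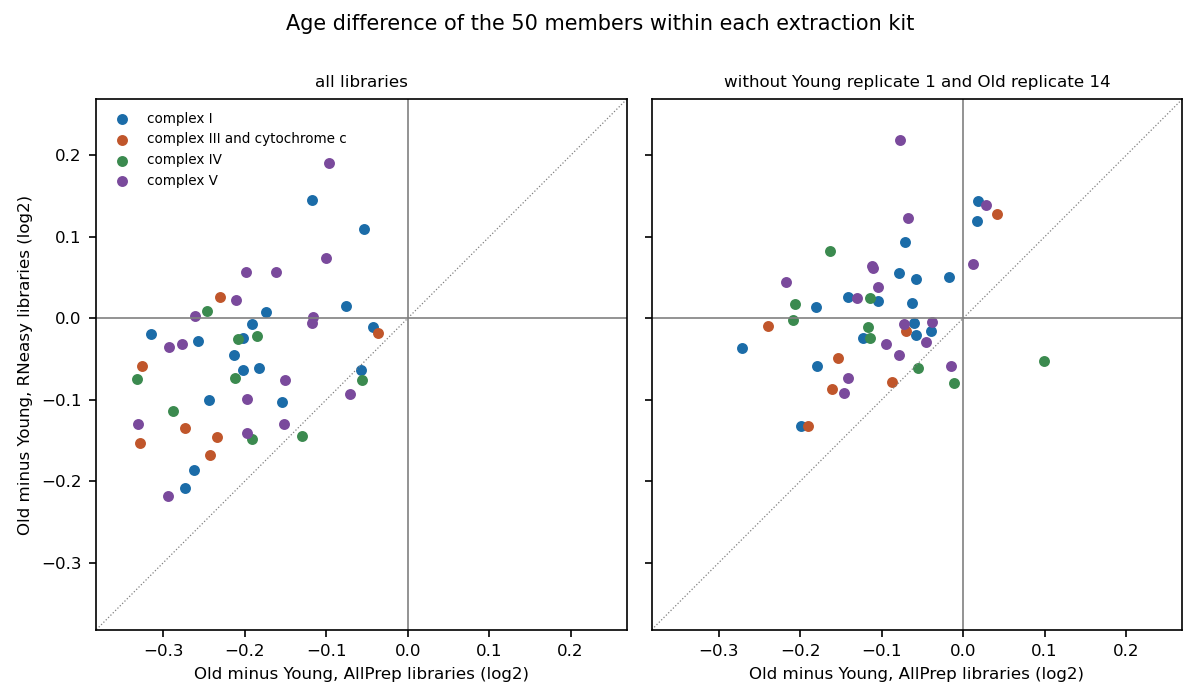
Log2 age difference (Old minus Young) of each of the 50 genes in AllPrep livers (horizontal) against RNeasy livers (vertical), for all libraries (left) and without Young replicate 1 and Old replicate 14 (right). Points are genes, coloured by complex, and the dotted line marks equal values. All 50 points lie left of 0 in the left panel and 44 do in the right one, where the points also lie higher.

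The labels also give a tracer measure of liver citrate synthase flux, the entry of carbon into the citric acid cycle that feeds the chain, in units that are not stated. It was 3.67 ± 0.323 (SD, n = 8) in Young and 2.79 ± 0.400 (SD, n = 10) in Old mice. When limma fitted flux beside age and kit, 0 of the 50 genes followed it and 0% of all genes were called. At an unadjusted p under 0.05 there were 0 of the 50 in either direction, against 1.48% of all genes higher and 1.73% lower. Among the 50 the smallest adjusted p was 0.927 (Ndufa4). The slope was below 0 for 41 of 50 genes, with a median of -0.081 log2 per unit of flux. It was -0.012 without Old replicate 14 and 0.018 with Young replicate 1 left out as well.

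The slopes differed in sign between the kits. In AllPrep livers all 50 genes had a slope above 0, with a median of 0.33, and in RNeasy livers 45 were below 0, with a median of -0.17, or -0.076 without Old replicate 14. With Young replicate 1 left out the AllPrep median was 0.38. None of the 50 was called in either kit. Of the 13895 genes tested, 1 was called in all AllPrep livers and 0 in RNeasy livers. The difference between the slopes was not tested.

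The remaining subunits of the chain were taken from lists of nuclear genes outside the 50. Of 21 further complex I subunits tested, 18 had an age difference below 0, with a median of -0.10. All 4 complex II subunits were below 0, with a median of -0.090, and so were 4 of 5 further complex III and IV subunits, with a median of -0.12. limma called 0 of these 30 genes for age, with 1 at an unadjusted p under 0.05, in the complex I list. Of the 13 subunit genes that mitochondria encode themselves, 0 were found in the TPM table by symbol, so nuclear and mitochondrial subunits were not compared.

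Among 51 assembly factors tested, which insert cofactors and join subunits but are no part of the finished chain, 33 were below 0 and the median was -0.061. Of the 51, 1 rose and 1 fell, against 2.43% of all genes in each direction. Tmem186, a complex I assembly factor, rose from a median of 6.15 scaled TPM in Young to 7.30 in Old livers, a log2 difference of 0.29 (SE 0.064, limma adjusted p 0.018), and 10 of 10 Old livers were above the Young median. Ndufaf6, another complex I assembly factor, fell from a median of 3.38 to 2.48, a log2 difference of -0.32 (SE 0.084, limma adjusted p 0.037). Leaving out each of the 18 libraries in turn lost the call for Ndufaf6 in 10 cases, Young replicates 1, 2, 3, 4 and 11 and Old replicates 7, 8, 9, 15 and 18, with adjusted p up to 0.069, and for Tmem186 in 0. Cox6b2, the testis form, also fell, from a median of 1.11 to 0.480 scaled TPM (log2 difference -0.70, SE 0.176, limma adjusted p 0.032). That call was lost without Young replicates 2, 10 or 12 or Old replicate 15, with adjusted p up to 0.071.

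Of 18 regulators of mitochondrial gene expression tested, 1 rose and 1 fell with age, where 2.43% of all genes rose and 2.43% fell. Nfe2l2, which encodes the antioxidant response factor NRF2, ranged from 31.2 to 48.9 scaled TPM in Young (median 38.0) and from 45.0 to 73.2 in Old livers (median 55.7). Its log2 difference was 0.55 (SE 0.091, limma adjusted p 0.004), and 10 of 10 Old livers were above the Young median. Polrmt, the RNA polymerase of mitochondria, ranged from 10.7 to 13.1 in Young (median 12.0) and from 8.80 to 12.0 in Old livers (median 10.2), a log2 difference of -0.23 (SE 0.063, limma adjusted p 0.042). With 1 library left out the adjusted p of Nfe2l2 stayed between 0.0025 and 0.010. The call for Polrmt was lost in 12 of 18 cases, Young replicates 2, 3, 4, 10, 11, 12 and 13 and Old replicates 7, 8, 9, 15 and 17, with adjusted p up to 0.095.

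Ppargc1a, the coactivator PGC-1alpha that drives these genes in many tissues, ranged from 1.66 to 4.07 scaled TPM in Young (median 3.23) and from 1.70 to 2.85 in Old livers (median 2.12). All 10 Old livers were below the Young median, and the log2 difference was -0.40 (SE 0.123, limma adjusted p 0.069). It was not called with every library in and no weights, where 338 of all 13895 genes were called higher and 337 lower. It passed the threshold in limma without Young replicate 13 (adjusted p 0.013) and with weights for each library (0.040). Over all genes, 231 were called higher and 243 lower without Young replicate 13, and 705 and 688 with the weights. Esrra, which encodes ERR alpha, had medians of 13.2 and 11.2 scaled TPM and a log2 difference of -0.17 (SE 0.107, limma adjusted p 0.355). Nrf1, Gabpa and Tfam, the last a packaging and transcription factor of mitochondrial DNA, had log2 differences of 0.032, -0.013 and -0.051, with limma adjusted p of 0.757, 0.928 and 0.595.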

How the data were processed

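Liver RNA of 18 mice (8 Young, 10 Old) was sequenced after rRNA depletion, and groups and kits came from the labels. The authors deposited TPM, reads per gene length scaled to 1000000 per library, for 18946 genes. Per the submitters' processing notes, the tools included STAR (2.7.9a), featureCounts and Subread, and the builds GRCm39 and mm10, with no role stated. The gene lengths, annotation and strand setting behind them were not given in the sources used here. All 18 columns were used, and an Ensembl identifier was missing for 16 of the 50 genes, which were matched by symbol.

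TPM values of a gene stood in ratios of whole numbers, so reads were recovered for 18946 of 18946 genes (largest distance from a whole number 2.4e-08, tolerance 0.0001). No pair of libraries of the same age agreed within sampling noise. Libraries were scaled with a composition factor, a trimmed mean of log ratios. At each end, 30% of the ratios and 5% of the levels were trimmed. Genes reaching 0.5 TPM in 8 or more libraries were kept, and limma 3.58.1 (R 4.3.3) with a variance trend was fitted to log2(scaled TPM + 0.5) over all 13895 genes, with age and kit as terms. Fold changes are on that scale. P-values were adjusted by Benjamini-Hochberg and called under 0.05. The flux slope and the interaction were added to that model. Alternatives changed the scaling, pseudocount, filter, weights, covariates, kits or libraries, or used limma-voom on the recovered reads.

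The 50 genes, the lists and the motifs were chosen with earlier results of these data known, and support nothing by themselves. Genes with full values are, in each complex, the 3 with the smallest p for age and those of highest and lowest mean TPM, then Ppargc1a, Nrf1, Gabpa, Esrra and Tfam, every other listed gene called for age (up to 4 per list), and the tissue forms of members. Genes called for the kit and other single genes were named after their values were seen.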

Additional observations from a re-analysis of the deposited data

Results flagged for a closer look

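Among 66 groups of values examined, 12 had a library set apart from the others of its age by its gap to the nearest value, where chance gives about 1 in 20. In 11 of the 12 it was Young replicate 1, an AllPrep library, at the high end. It held 1111 scaled TPM of Ndufa4 (the other Young livers 581 to 743), 353 of Uqcrfs1 (245 to 292), 475 of Cox7a2 (303 to 382), 103 of Cox5a (63.4 to 80.4), 1298 of Cox4i1 (774 to 920.0), 489 of Atp5g3 (330 to 367), 754 of Atp5md (387 to 440), 82.2 of Atp5j (53.4 to 65.4) and 1115 of Cox6c (690 to 839). Its mean log2 deviation was 0.42 for complex III (the others -0.052 to 0.17) and 0.40 for complex V (-0.091 to 0.13). The remaining case was Esrra, at 17.6 scaled TPM in Young replicate 4 (the others 11.5 to 14.4). These 12 values share libraries and are not independent of each other.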

How the results depend on the processing

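No subunit was called for age under any alternative run, and the median age difference of the 50 genes stayed below 0 in each of them, from -0.20 (AllPrep libraries only) to -0.0051 (RNeasy libraries only and without Old replicate 14). When 1 library at a time was left out, it ran from -0.14 to -0.071, and by complex from -0.14 to -0.062 in I, -0.21 to -0.12 in III, -0.16 to -0.088 in IV and -0.14 to -0.046 in V. Leaving out Young replicate 1 and Old replicate 14 together, or either of them within its kit, was chosen after seeing the data. That choice brings the ages closer by construction. With weights for each library the median was -0.031. With body weight as a term, which goes with age here, it was -0.054, and 0.026 in complex V. RNeasy libraries only and without Old replicate 14 gave 0.019 in complex I, with 7 of 17 genes below 0, and 0.025 in complex V, with 8 of 17.

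The calls over all genes moved more, with 338 higher and 337 lower for age: 188 lower without the composition factor, 164 and 214 with a mean of at least 5 TPM (fewer genes tested), 705 and 688 with library weights, 98 and 55 in AllPrep only, 14 and 20 there without Young replicate 1, 7 and 7 in RNeasy only, 38 and 29 there without Old replicate 14, and 3 and 0 with body weight. Leaving out 1 library gave 176 to 513 higher and 183 to 466 lower.

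For the kit (1767 genes higher, 772 lower, 8 subunits lower), the counts were 2912, 71 and 0 without the composition factor, 3260 higher with no filter, 386 higher and 5 subunits with a mean of at least 5 TPM, 1732 lower with library weights, 1690 lower and 3 subunits with Young replicate 1 and Old replicate 14 both left out, 861, 148 and 2 in Young only, and 639, 73 and 0 in Old only. Leaving out 1 library gave 1 to 8 subunits, 1533 to 2060 genes higher and 520 to 1211 lower. The flux slope had a median of 0.33 in AllPrep only, with 1 gene called lower, and 0.38 there without Young replicate 1, with 2; with 1 library left out it ran from -0.16 to -0.012. The interaction called 3 genes lower, none a subunit, without Old replicate 14.

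Single genes with an age estimate near 0 changed sign. Without the composition factor Uqcrb was at 0.031, Atp5j at 0.056, Gabpa at 0.043 and Tfam at 0.0052. With library weights Uqcrb was at 0.079 and Atp5j at 0.073, and with no kit term at 0.013 and 0.023. In AllPrep only Nrf1 was at -0.043 and Gabpa at 0.031, and without Young replicate 1 there Uqcrb was at 0.041, Atp5j at 0.028 and Nrf1 at -0.021. In RNeasy only Atp5j was at 0.074, and without Old replicate 14 there Uqcrb was at 0.13, Atp5l at 0.044, Atp5j at 0.14, Gabpa at 0.0068 and Tfam at 0.024. With Young replicate 1 and Old replicate 14 both left out Uqcrb was at 0.094 and Atp5j at 0.096. With body weight Cox7a2 was at 0.029, Atp5l at 0.033, Atp5md at 0.023, Atp5j at 0.092 and Tfam at 0.018. With 1 library left out Uqcrb ran from -0.073 to 0.053, Atp5j from -0.037 to 0.058 and Gabpa from -0.037 to 0.018. The cause of these shifts was not tested.

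No paired analysis was possible because no replicate number occurs in both ages. The 95% intervals for age reached a median of 0.18 log2 to either side.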
